A study of Mus musculus with 18 samples.

Results

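Fgf21 and Gdf15 are the genes of 2 hormones that the liver releases under stress, and they were chosen as the rows of these symbols in a count table of 37315 mouse genes (2 of 37315). Both passed the filter on low counts, which kept 16213 genes. The libraries came from livers of C57BL/6J mice that had received asparaginase (Elspar, a bacterial enzyme given against leukaemia that breaks down asparagine) or the same volume of PBS, a salt solution. Polyadenylated RNA was sequenced in 6 groups of 3 libraries. Mice aged 2 weeks and 16 weeks had 7 daily injections into the abdomen, and mice aged 8 weeks had 8, at 3 IU of asparaginase per g of body weight or none. Liver was taken 7.5 h after the last injection. The labels name this 1 strain, and no altered allele, for every group. Each group held both labelled sexes, with 2 libraries of one and 1 of the other, and each library was treated as 1 mouse. Replicate numbers below follow the order of deposition and pair nothing.

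FGF21 is a fibroblast growth factor that acts as a hormone: it leaves the hepatocyte, binds a receptor made of an FGF receptor and beta-Klotho, and acts on fat tissue, brain and liver to change the use of fat and sugar and the appetite for sweet food and protein. GDF15 is a member of the TGF-beta superfamily whose receptor, GFRAL with RET, sits in the hindbrain and lowers food intake and causes nausea. Both genes are known to respond when an amino acid is missing or proteins misfold: kinases such as GCN2 phosphorylate eIF2, the translation factor that brings in the first methionine, overall translation falls, and the transcription factor ATF4 is made and switches on its targets. Asns, which encodes asparagine synthetase, is the textbook target of this pathway and is the reference gene here.

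Fgf21 lies on chromosome 7 from 45613886 to 45615490 on the minus strand of GRCm38 (951 bases of exon in 3 blocks, ENSMUSG00000030827). Gdf15 lies on chromosome 8 from 70629393 to 70632456, also on the minus strand (1852 bases of exon in 3 blocks, ENSMUSG00000038508). Asns lies on chromosome 6 from 7675169 to 7693254 (2735 bases in 13 blocks, ENSMUSG00000029752). All 3 are protein coding, and no gene of the GENCODE M21 annotation overlaps any of them. The annotation and strand setting used for counting were not given, so whether unannotated antisense reads entered the counts is not known. ATF4, with a C/EBP partner, binds a composite element whose core is often written TGATGCAA, or with any base in the sixth place TGATGNAA. The 250 bases before each gene's start, from RefSeq on GRCm38.p6, are shown for both hormones because they differ in this element. They are written 5′ to 3′ on the strand of the gene, and capitals mark a match on either strand.
Fgf21, chr7:45615491-45615740, minus strand: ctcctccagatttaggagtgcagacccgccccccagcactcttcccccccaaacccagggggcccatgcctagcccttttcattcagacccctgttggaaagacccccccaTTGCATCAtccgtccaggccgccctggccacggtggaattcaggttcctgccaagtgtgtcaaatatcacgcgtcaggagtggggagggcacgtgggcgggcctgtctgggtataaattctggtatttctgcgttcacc
Gdf15, chr8:70632457-70632706, minus strand: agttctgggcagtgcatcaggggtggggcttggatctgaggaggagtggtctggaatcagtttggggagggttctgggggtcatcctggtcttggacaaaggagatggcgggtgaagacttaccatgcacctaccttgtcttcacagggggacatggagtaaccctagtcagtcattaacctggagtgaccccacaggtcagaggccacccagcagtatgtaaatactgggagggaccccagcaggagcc
The capitals in the Fgf21 window are the reverse complement of TGATGCAA and lie 139 to 132 bases before the start. TGATGCAA was found on either strand in 0.791% of 32851 mouse gene starts searched over the same length, and TGATGNAA, which includes it, in 3.45%. The window of Gdf15 held neither, nor TGACGTCA, the cAMP response element (1.55% of starts). The E-box CACGTG stood 50 to 45 bases before the Fgf21 start (6.02% of starts hold it) and was not in the Gdf15 window shown. RefSeq gives Gdf15 a second start inside the gene, at 70632095, and the 250 bases before that one held CACGTG (83 to 78 bases before it) and none of the other elements, so the genes do not differ in the E-box over all listed starts. For comparison with the reference gene, 30 bases around each match are given with the match read in the same direction.
Fgf21, chr7:45615611-45615640, plus strand: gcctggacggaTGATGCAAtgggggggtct
Asns, chr6:7693214-7693243, minus strand: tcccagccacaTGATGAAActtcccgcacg
The Asns match, of TGATGNAA, lies 23 to 16 bases before its RefSeq start, which is inside the Asns interval that GENCODE gives, as is the match. Windows of the same length before the listed RefSeq starts of Psat1, Trib3, Atf5 and Fut1 held no TGATGNAA. These genes, described below, nevertheless rose with asparaginase in the mean over ages. The Fut1 window, 45617356 to 45617605, lay inside the Fut1 gene as GENCODE gives it, so bases before that gene's first base were not searched. A relation of the element to the response was not tested. These are matches of letters: they do not show binding, and letters absent from 250 bases say nothing of sites elsewhere.

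The deposited counts summed to between 24690871 and 46949361 per library, which sets the counting precision of the levels, given here as CPM, counts per library size after TMM scaling. Markers of hepatocytes (10 genes, Alb and Ttr among them) summed to 57700 to 100000 CPM in every library. At 2 weeks the sums did not overlap, at 91100 to 100000 in PBS and 57700 to 90200 in asparaginase libraries. Groups of 3 can fall apart in this way without an effect of treatment. The share of genes so separated at a single age is not given here. Separation at a single age, here and below, is therefore a description and not a test. Of the 2-week libraries, 3 (PBS replicates 1 and 2, asparaginase replicate 3) held transcripts of both sexes. Of the 8-week asparaginase libraries, 2 (replicates 1 and 2) held those of stratified squamous epithelium. Asns was higher in every asparaginase library than in every PBS library of its age: 19.4 to 30.7 against 3.47 to 3.93 CPM at 2 weeks, 4.15 to 14.2 against 0.893 to 3.94 at 8 weeks, and 13.1 to 28.0 against 0.555 to 1.51 at 16 weeks.

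Fgf21 was low in every PBS library and higher in nearly all asparaginase libraries. At 2 weeks the PBS libraries held 0.711, 2.09 and 2.22 CPM (24, 77 and 80 counts), and the asparaginase libraries 37.0, 7.68 and 7.81 CPM (1464, 272 and 295 counts). The groups did not overlap, and the asparaginase mean was set largely by replicate 1. At 8 weeks PBS gave 0.446, 2.38 and 0.924 CPM (14, 72 and 37 counts), and asparaginase 2.19, 19.9 and 28.8 CPM (95, 698 and 1020 counts). Here the groups overlapped: asparaginase replicate 1, a labelled female, lay below the labelled male of the PBS group, though above both of its females. At 16 weeks PBS gave 0.989, 0.292 and 0.35 CPM (33, 10 and 10 counts), and asparaginase 24.7, 6.65 and 7.86 CPM (702, 223 and 212 counts). These groups were again apart, and 1 asparaginase library again stood above the other two.

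In means, Fgf21 went from 1.67 ± 0.836 to 17.5 ± 16.9 CPM at 2 weeks, from 1.25 ± 1.01 to 17.0 ± 13.5 at 8 weeks, and from 0.544 ± 0.387 to 13.1 ± 10.1 at 16 weeks (SD, n = 3 per group). The ratios of these means were 10.4, 13.6 and 24.0. The SD came close to the mean in every asparaginase group, so the size of the rise is less firmly measured than its direction.

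Taken over the 3 ages, the rise of Fgf21 passed the test across all genes. The mean log2 fold change was 3.42 (SE 0.462, edgeR adjusted p = 0.00232), the 41st smallest p-value and the 45th largest rise of 16213 genes. In this comparison 877 genes passed, or 5.41% of those tested. An exact permutation of the treatment labels within ages gave a mean difference of 3.6 in log2 CPM (two-sided p = 0.0005, 0.00075 after adjustment over 6 such tests, smallest possible 0.00025). In all, 8 of 9 asparaginase libraries lay above the highest PBS library of their age. The share of all genes that reach this count is not given here, so the count is a description and not a test. In bulk liver RNA, a change in the number of cells that express a gene cannot be told apart from a change in RNA per cell.

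At single ages Fgf21 did not pass the same threshold. The log2 fold change was 3.35 at 2 weeks (SE 0.697, edgeR adjusted p = 0.0608), 2.61 at 8 weeks (SE 0.827, adjusted p = 0.131) and 4.31 at 16 weeks (SE 0.86, adjusted p = 0.0777). Few genes passed at any single age: 0.432% at 2 weeks, 0.364% at 8 weeks and 0.234% at 16 weeks. Asns passed at each age, with log2 fold changes of 2.85, 1.80 and 4.27 (edgeR adjusted p = 0.000203, 0.0392 and 1.08e-05). Its 2-week call was lost without the sex term (adjusted p = 0.0849), without the 3 libraries of mixed sex (0.0774) and without asparaginase replicate 1 (0.141). Its 8-week call was lost in 4 of 9 settings and when any of 7 of the 18 libraries was left out in turn (adjusted p up to 0.862, without asparaginase replicate 1). The calls for Fgf21 at 2 and 16 weeks depended on the tool and on the filter. DESeq2 gave 3.26 (adjusted p = 0.0102) and 4.5 (adjusted p = 5.12e-05), but it called 432 and 322 genes where edgeR called 70 and 38. Without the filter on low counts edgeR passed at both ages (adjusted p = 0.00896 and 0.00605). With limma-voom Fgf21 passed at 2 weeks (adjusted p = 0.0332) but not at 16 weeks (0.184). At 8 weeks no tool or setting tried brought it under the threshold.

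**Figure D1:**
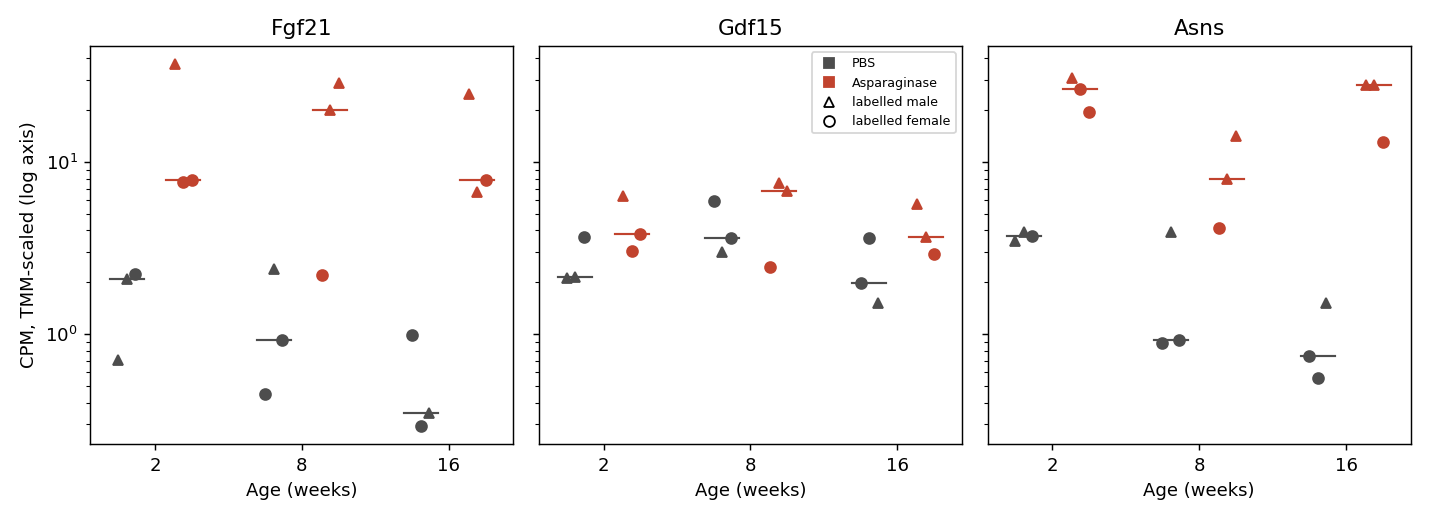
Levels of Fgf21, Gdf15 and Asns in each of the 18 libraries, in CPM on a log axis, by age in weeks. Points are libraries (triangles labelled male, circles labelled female) and lines are group medians. Fgf21 spans 0.292 to 2.38 CPM in PBS and 2.19 to 37.0 in asparaginase libraries, while the Gdf15 groups overlap at every age.

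Gdf15 moved far less. At 2 weeks the PBS libraries held 2.13, 2.14 and 3.66 CPM and the asparaginase libraries 6.31, 3.02 and 3.79. At 8 weeks PBS gave 5.93, 2.98 and 3.6 CPM and asparaginase 2.45, 7.49 and 6.81. At 16 weeks PBS gave 1.98, 3.59 and 1.51 CPM and asparaginase 5.73, 3.64 and 2.93. The groups overlapped at every age, with 2 of 3 asparaginase libraries above the highest PBS library each time. That count too is a description, as the share of all genes that reach it is not given here. The lowest asparaginase value of all, 2.45 CPM, was that of 8-week replicate 1, which was also the lowest for Fgf21.

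The ratios of mean Gdf15 were 1.65 at 2 weeks, 1.34 at 8 weeks and 1.74 at 16 weeks, on means of 2.65 ± 0.881, 4.17 ± 1.56 and 2.36 ± 1.09 CPM in PBS and 4.37 ± 1.72, 5.58 ± 2.74 and 4.1 ± 1.46 CPM in asparaginase libraries (SD, n = 3 per group). The log2 fold changes were 0.73 (SE 0.478), 0.15 (SE 0.579) and 0.82 (SE 0.565), with edgeR adjusted p-values of 0.612, 0.916 and 0.626. Their mean was 0.57 (SE 0.313, edgeR adjusted p = 0.306, unadjusted p = 0.0929). In that comparison 22.4% of all genes had an unadjusted p under 0.05, and Gdf15 was not among them.

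The exact permutation test of Gdf15 alone gave a mean rise of 0.611 in log2 CPM (two-sided p = 0.0405, 0.0486 after adjustment over 6 tests). This call was lost when any of 12 of the 18 libraries was left out in turn (adjusted p between 0.0075 and 0.118 over the 18), and when the 3 libraries of 2 weeks with transcripts of both sexes were left out (0.464, adjusted p = 0.217). The direction was upward in each of those repeats.

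The hormones differed from each other in their response. The log2 ratio of Fgf21 to Gdf15 rose by 2.99 on average within ages (exact permutation, two-sided p = 0.00025, the smallest possible; adjusted p = 0.00075), by 2.39 at 2 weeks, 3.03 at 8 weeks and 3.55 at 16 weeks. Per kilobase of exon, on TMM-scaled CPM, the level of Fgf21 was 0.147 to 1.9 times that of Gdf15 in the PBS libraries and 1.75 to 11.4 times in the asparaginase libraries. At 16 weeks, for example, Fgf21 went from 0.572 ± 0.407 to 13.7 ± 10.6 CPM per kilobase and Gdf15 from 1.27 ± 0.591 to 2.21 ± 0.787 (SD, n = 3).

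Fgf21 rose about as much as Asns and Gdf15 rose less. The log2 ratio of Fgf21 to Asns changed by 0.384 within ages (exact permutation, two-sided p = 0.397), and by 0.333, 1.02 and -0.199 at 2, 8 and 16 weeks. The log2 ratio of Gdf15 to Asns changed by -2.6 (exact permutation, two-sided p = 0.0005, adjusted p = 0.00075), and by -2.05, -2.02 and -3.75 at the 3 ages. The test found no difference between the rises of Fgf21 and Asns, which does not show that they were equal.

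**Figure D2:**
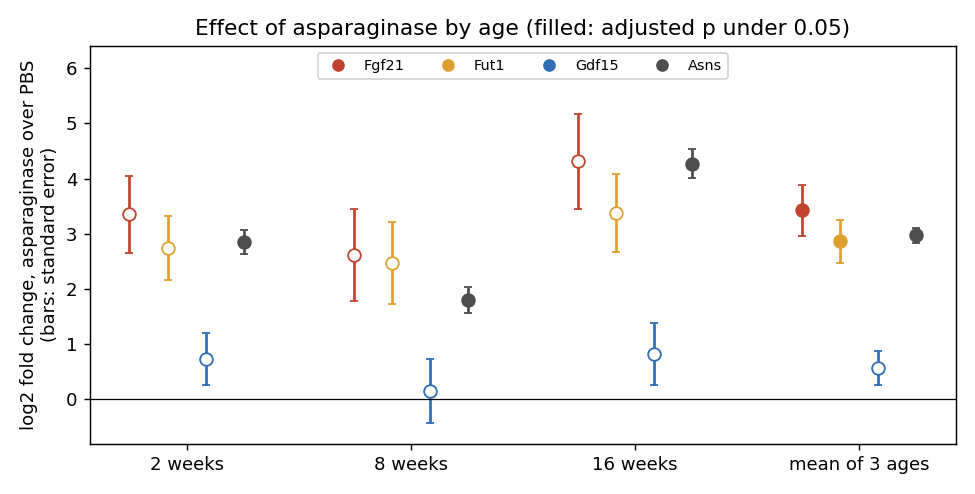
Log2 fold change of asparaginase over PBS for Fgf21, its neighbour Fut1, Gdf15 and Asns at each age and as the mean of the ages, with standard errors as bars. Filled points have an edgeR adjusted p under 0.05: all those of Asns, and the mean effects of Fgf21 (3.42) and Fut1 (2.86), but none of Gdf15.

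Asns differed with age, but no age difference was detected for either hormone. In PBS livers Asns fell with age (edgeR joint test over the 3 ages, adjusted p = 0.000569), being lower at 8 weeks by a log2 difference of -0.94 (adjusted p = 0.0105) and at 16 weeks by -1.87 (adjusted p = 0.000269) than at 2 weeks. For Fgf21 in PBS livers the 16-week level differed from the 2-week level by -1.40 (SE 0.892, edgeR adjusted p = 0.263; joint test 0.411). Gdf15 differed by -0.17 (SE 0.511, edgeR adjusted p = 0.834; joint test 0.284). In PBS livers 33.2% of genes differed among ages. In order of its group mean, PBS Fgf21 was highest at 2 weeks and lowest at 16 weeks, and PBS Gdf15 was highest at 8 weeks; no neighbours in these orders differed past the threshold.

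Among asparaginase libraries the level of Asns also differed with age (edgeR joint test, adjusted p = 0.000156) and was lowest at 8 weeks, while Fgf21 (adjusted p = 0.467) and Gdf15 (adjusted p = 0.896) gave no call. In that comparison 33.1% of genes passed. The effect of asparaginase itself was tested for a difference between ages. The edgeR joint test gave an adjusted p of 0.805 for Fgf21, 0.903 for Gdf15 and 0.0953 for Asns, and 0% of all genes passed (1529 had an unadjusted p under 0.05, and limma-voom called 1 gene). The largest gap for Fgf21 was between 16 and 8 weeks, a log2 difference of 1.70 with an SE of 1.2, so a change of effect with age of several fold would not have been detected.

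Fgf21 varied more between libraries of a group than most genes. Its pooled SD within groups was 1.26 in log2 CPM, wider than all but 2.48% of 16213 genes, whose median SD was 0.246. Among the 1622 genes within 0.5 log2 units of its own mean level, 1.79% were wider. Gdf15 had an SD of 0.598 (13.1% of genes were wider) and Asns of 0.727 (8.34%). The spread of Fgf21 was largest in the asparaginase group of 8 weeks, with an SD of 1.99 in log2 CPM, and smallest in PBS at 16 weeks, with 0.856. These SDs were taken around group means without a sex term, and each group held both labelled sexes. Any difference within a group in sex or in transcripts of other tissues is therefore part of them.

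Among the 9 asparaginase libraries the high ones for Fgf21 were also the high ones for Gdf15. The highest 4 libraries (2-week replicate 1, 8-week replicates 2 and 3, and 16-week replicate 1) held 19.9 to 37.0 CPM of Fgf21 and 5.73 to 7.49 CPM of Gdf15. The other 5 held 2.19 to 7.86 CPM of Fgf21 and 2.45 to 3.79 CPM of Gdf15. The sets were split at the widest gap in Gdf15 and did not overlap in Fgf21. Because of these separate sets, no correlation over these 9 is given. The upper set was 4 labelled males and the lower set 4 labelled females and 1 labelled male. In the lower set, 2-week replicate 3, labelled female, held transcripts of both sexes. In the PBS libraries no such pairing was seen (Pearson r = -0.0391 over 9 libraries, exact permutation p = 0.923, Spearman rho = 0.1, p = 0.81, r = -0.108 without the 2 libraries farthest from the Gdf15 median). With group means subtracted, r over all 18 was 0.515 (exact permutation p = 0.118, adjusted over 9 relations 0.265; rho = 0.354, p = 0.248; 0.448 without the farthest 2).

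Labelled sex was a term of the fit within each age. At 2 weeks PBS replicates 1 and 2, labelled male, and asparaginase replicate 3, labelled female, held transcripts of both sexes. The 2-week differences therefore rest on labels that do not fully separate the sexes. Labelled males exceeded females in Fgf21 by a log2 difference of 1.12 at 2 weeks (SE 0.665, edgeR adjusted p = 0.636), 2.77 at 8 weeks (SE 0.835, adjusted p = 0.0607) and 0.53 at 16 weeks (SE 0.841, adjusted p = 0.84), none past the threshold. For Gdf15 the values were 0.09, 0.45 and -0.06 (edgeR adjusted p = 0.971, 0.668 and 0.979). Asns was higher in males at 8 weeks (1.71, edgeR adjusted p = 0.00276) and at 16 weeks (1.13, adjusted p = 0.0379). At 8 and 16 weeks the PBS group had 1 labelled male of 3 and the asparaginase group 2, and at 2 weeks the reverse. Sex and treatment were thus partly aligned at every age. The exact permutation tests carried no sex term, so their differences are not adjusted for sex. At 8 weeks Fgf21 within males was 19.9 and 28.8 against 2.38 CPM, and within females 2.19 against 0.446 and 0.924.

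Across asparaginase libraries the level of Fgf21 did not follow that of Asns closely (r = 0.49 over 9 libraries, exact permutation p = 0.188, adjusted over 9 relations 0.338; rho = 0.4, p = 0.291). Without the 2 libraries farthest from the Asns median r was 0.148. The lowest library of both genes, 8-week replicate 1, carried this relation: without it r was -0.0451. With group means subtracted, r over 18 libraries was 0.632 (exact permutation p = 0.0298, adjusted p = 0.114; rho = 0.626, p = 0.0267) and 0.49 without the 2 farthest (p = 0.156), so it rested partly on those. For Gdf15 and Asns the corresponding values were r = 0.224 over the 9 asparaginase libraries (exact permutation p = 0.565, rho = 0.233, p = 0.552, 0.146 without the 2 farthest) and 0.0587 over 18 with group means subtracted (p = 0.86, rho = 0.0506, p = 0.872, 0.00127 without the 2 farthest). In PBS libraries Asns fell into separate sets of values, 4 libraries at 3.47 to 3.94 CPM and 5 at 0.555 to 1.51, and no correlation with it is given there.

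**Figure D3:**
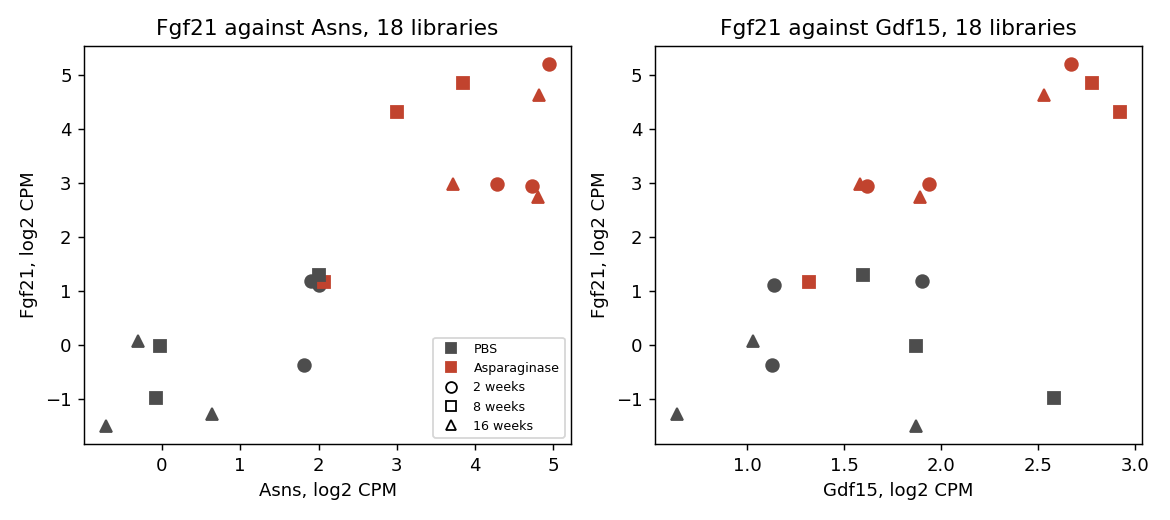
Fgf21 against Asns (left) and against Gdf15 (right) in log2 CPM, 1 point per library, coloured by treatment and shaped by age. On the right, 4 asparaginase libraries stand apart at the top in both genes (5.73 to 7.49 CPM of Gdf15, 19.9 to 37.0 CPM of Fgf21), while PBS points show no relation (r = -0.0391).

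The nearest tested neighbours of each gene were measured beside it. Fut1, a fucosyltransferase that builds the H blood group antigen, lies head to head with Fgf21 on the plus strand of chromosome 7, from 45617289 to 45621059, with 1798 bases between them. It was nearly silent in PBS libraries, at 0 to 0.25 CPM, and held 0.847 to 1.64 CPM at 2 weeks, 0.311 to 0.627 at 8 weeks and 0.686 to 1.15 at 16 weeks of asparaginase. Every asparaginase library was above every PBS library of its age, which was so for 0.555% of the 16213 genes, Asns included. The mean log2 fold change of Fut1 was 2.86 (SE 0.391, edgeR adjusted p = 0.00243), with 2.74, 2.47 and 3.38 at the single ages (adjusted p = 0.0689, 0.112 and 0.0833). Its counts were 0 to 9 in PBS and 11 to 65 in asparaginase libraries, so its fold is imprecise. Bcat2, an aminotransferase of branched-chain amino acids and the nearest tested gene on the other side of Fgf21 at 24174 bases, gave a log2 fold change of 0.12 (edgeR adjusted p = 0.508). The neighbours of Gdf15, Lrrc25 at 7909 bases and Pgpep1 at 13978 bases, gave -0.16 and -0.19 (adjusted p = 0.596 and 0.265).

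The counts of pathway genes below are to be read against all 16213 genes, of which 413 rose and 464 fell in the mean effect (median log2 fold change 0.00459). The lists were chosen with earlier results of these data known, so their counts are descriptions and not tests. Of 15 genes for factors known to act on Fgf21, 3 rose in the mean effect and none fell (median 0.12). Atf5, an ATF4-related factor, rose by 1.43 (SE 0.195, edgeR adjusted p = 0.00243), from 140 ± 32.7 to 595 ± 176 CPM at 2 weeks and from 91.1 ± 15.7 to 335 ± 111 at 16 weeks (SD, n = 3). At those ages Atf5 also passed alone (adjusted p = 0.017 and 0.0258), but at 8 weeks its value was 0.16 (adjusted p = 0.847). Atf3, another stress factor of the family, rose by 1.09 (edgeR adjusted p = 0.0448) and Rora, a nuclear receptor, by 0.31 (adjusted p = 0.0451). Neither passed at a single age. The Atf3 groups overlapped at 2 weeks (asparaginase 4.67, 1.33 and 2.09 CPM, PBS 1.36 to 1.53). They also overlapped at 16 weeks (1.48, 1.22 and 5.12 against 0.91 to 2.19), but not at 8 weeks (2.51, 2.19 and 6.98 against 1.26 to 1.94). The mRNA of Atf4 itself, whose product is controlled mainly in translation, gave 0.13 (adjusted p = 0.426). Ddit3, which encodes CHOP and acts on both hormone genes, gave 0.61 (adjusted p = 0.0588), and Ppara, the fasting receptor that also switches on Fgf21, gave 0.12 (adjusted p = 0.577).

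Among 10 genes for regulators of Gdf15 and p53 targets, none passed in the mean effect (median 0.15). Phlda3, a p53 target, rose at 8 weeks alone (1.32, edgeR adjusted p = 0.0398), in the group whose replicates 1 and 2 held squamous transcripts. Cdkn1a, the p53-driven inhibitor of cell cycling, gave a mean log2 fold change of 0.88 (adjusted p = 0.215), and Trp53, p53 itself, 0.15 (adjusted p = 0.145).

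Of 29 known ATF4 targets, 16 rose and none fell in the mean effect (median 0.49). Over all 16213 genes 413 rose and 464 fell. At 2, 8 and 16 weeks 4, 5 and 8 of the 29 rose, against 53, 31 and 31 of all genes. Psat1 and Phgdh, enzymes of serine synthesis, rose by 2.97 (SE 0.186) and 2.27 (SE 0.219), with edgeR adjusted p-values of 7.09e-06 and 0.000294. Nupr1, a stress-induced chromatin protein, rose by 2.33 (SE 0.266, adjusted p = 0.000948), and Mthfd2, a mitochondrial folate enzyme, by 2.01 (SE 0.191, adjusted p = 0.000281). The list was chosen with earlier results of these data known and includes Asns, so its counts are no independent support for an ATF4 response. The mean log2 fold change of Fgf21, 3.42, was above that of each of the 29, and that of Gdf15, 0.57, lay close to the list's median.

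Of 12 genes for eIF2 kinases, their partners and feedback, 2 rose and 1 fell (median 0.08), where 5.41% of all genes passed in either direction. Trib3, a pseudokinase that restrains ATF4, rose by 2.25 (SE 0.231, edgeR adjusted p = 0.000432), from 4.3 to 11.0 CPM in PBS to 11.2 to 67.0 in asparaginase libraries. Sesn2, a leucine-sensing brake on mTORC1, rose by 0.70 (adjusted p = 0.0126). Eif2ak2, the eIF2 kinase that double-stranded RNA activates, fell by 0.47 (adjusted p = 0.0204), and Eif2ak4, which encodes GCN2, gave -0.06 (adjusted p = 0.693).

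Of 16 PPARA targets of fatty acid oxidation, 2 rose and none fell (median 0.15), against 413 risen of all 16213 genes. Cpt1a, the entry step of fatty acids into mitochondria, rose by 0.48 (edgeR adjusted p = 0.0232) and Cyp4a31, a fatty acid hydroxylase with near-identical paralogs whose reads may be shared, by 0.68 (adjusted p = 0.0209). None of the 16 passed at a single age.

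No tested gene for the reception of FGF21 changed past the threshold, and the receptor genes of GDF15 were too low in liver to test. Of 9 genes for the receptors, co-receptors and related ligands of FGF21, 6 were tested and none passed in any comparison. Klb, the beta-Klotho co-receptor, was at 19.1 to 31.9 CPM in PBS and 16.6 to 30.3 in asparaginase libraries (mean log2 fold change 0.04, edgeR adjusted p = 0.832). Fgfr4, the main FGF receptor of hepatocytes, gave -0.15 (adjusted p = 0.42). Kl, Fgf15 and Fgf23 were too low to test. Of 13 genes that the ERK pathway downstream of FGF receptors raises, none passed (median 0.14).

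Gfral, the receptor of GDF15, had 0 counts in all 18 libraries, and Ret was too low to test. Of 5 tested genes for proteases of GDF15 and its receptor, Pcsk6, a proprotein convertase, rose by 0.28 (edgeR adjusted p = 0.0498). Furin, the best known convertase, gave 0.15 (adjusted p = 0.173).

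Of 24 other hormones and regulators that liver secretes, 3 rose and 3 fell (median 0.11), against 413 and 464 of all 16213 genes. Igfbp1, which binds insulin-like growth factors and is also raised by amino acid lack, rose by 0.98 (SE 0.244, edgeR adjusted p = 0.038). Smoc1 rose by 0.39 (adjusted p = 0.0119). Hamp (hepcidin, which limits iron uptake; a near copy, Hamp2, may share reads) rose by 1.62 (adjusted p = 0.00716), a mean carried by 2 weeks (4.81, from 1.36 ± 0.262 to 39.4 ± 51.6 CPM), since it gave -0.15 at 8 weeks and 0.20 at 16 weeks. Igf1, the growth hormone dependent factor, fell by 0.54 (adjusted p = 0.0277), Lect2 by 0.53 (adjusted p = 0.0283) and Manf, an ER stress factor, by 0.90 (adjusted p = 0.0291). Inhbe, another secreted TGF-beta family member under ATF4, gave 0.50 (adjusted p = 0.16). In 2-week replicate 1 of asparaginase, where Fgf21 was 37.0 CPM, Inhbe was 38.0 CPM against 9.79 and 11.4 in the other two.

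**Figure D4:**
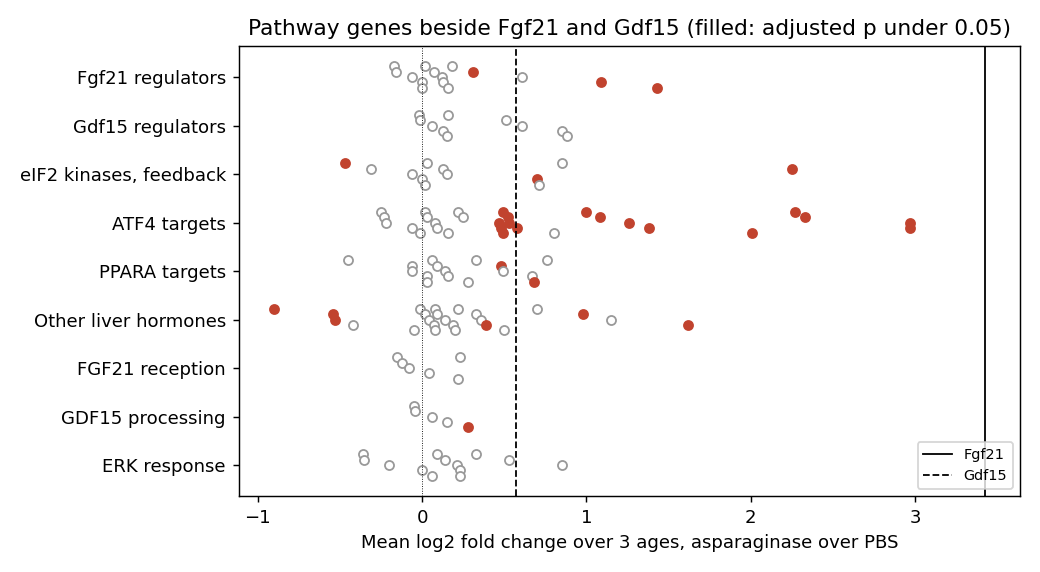
Mean log2 fold change over the 3 ages (horizontal axis) of every tested gene of the 9 pathway lists, with the values of Fgf21 (solid line, 3.42) and Gdf15 (dashed line, 0.57). Filled points have an edgeR adjusted p under 0.05; 16 of 29 ATF4 targets are filled, and no FGF21 receptor or ERK response gene is.

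The genes most like each hormone were ranked by Pearson r of log2 CPM over 18 libraries, which share the treatment difference. For Fgf21 they were Rabggtb (0.899), Senp6 (0.896), Vmn2r3 (0.889), Asns (0.888) and Isg20l2 (0.882), and Gdf15 ranked 356 (0.629). With group means subtracted, those most like it included Wdr33 (0.937), Isg20l2 (0.903), Hnrnpf (0.899) and Dnajc11 (0.897), and Asns ranked 615. For Gdf15 over 18 libraries they were Nectin2 (0.87), Jund (0.785), Anapc16 (0.761), Zbtb25 (0.761) and Dcun1d5 (0.748), with Asns at rank 1131. With group means subtracted, Zfp628 (0.862), Zfp513 (0.842), Nectin2 (0.83), Pglyrp2 (0.813) and Btbd19 (0.804) came first. Vmn2r3, a vomeronasal receptor gene of a large family whose members may share reads, rose by 6.93 (edgeR adjusted p = 0.0034), and Nectin2 gave 0.23 (adjusted p = 0.122).

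Transcripts of other tissues moved in part with treatment. The 17 pancreatic acinar markers summed to 28.5 to 141 CPM in PBS and 558 to 1490 in asparaginase livers at 2 weeks. At 8 weeks they summed to 9.94 to 11.2 in PBS, and to 159, 9.57 and 14.7 in asparaginase replicates 1 to 3, where Fgf21 was 2.19, 19.9 and 28.8 CPM. At 16 weeks they summed to 12.4, 367 and 421 in PBS and 244, 13.1 and 2910 in asparaginase livers. No acinar marker was at 0 throughout a group. The part of these transcripts in the Fgf21 values, a gene that pancreas also expresses, was not tested.

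Squamous markers (16 genes) summed to 871 and 459 CPM in 8-week asparaginase replicates 1 and 2, against 1.79 to 75.4 in all others. Skeletal muscle markers (12 genes), of a tissue that makes both hormones under stress, summed to 2310 CPM in 8-week asparaginase replicate 1 and to 3.3 to 855 in all others, and Tnnc2 was at 0 in 5 of 6 groups. At 16 weeks every asparaginase library (3.3 to 18.6 CPM) lay below every PBS library (43.0 to 253) in the muscle sum. The Kupffer cell and macrophage sum (11 genes) was 239 to 297 CPM in asparaginase and 318 to 593 in PBS libraries at 8 weeks. The hepatocyte sum was lowest of all, 57700 CPM, in 2-week asparaginase replicate 1, the library with most Fgf21. The part of these sums in the values of Fgf21 and Gdf15 was not tested. Asparaginase replicate 1 of 8 weeks had the lowest Fgf21 and Gdf15 of the asparaginase libraries. It also had a share of major urinary protein (Mup) transcripts of 5.39%, against 20.7% and 22.8% in the PBS females of its age, and a mitochondrial share of 11.0% against 8.02% and 8.07%. The part of these differences in its low Fgf21 was not tested. Without both squamous libraries the mean rise of Fgf21 in log2 CPM was 4.07. At 8 weeks that value rests on asparaginase replicate 3 alone, the highest of its group for Fgf21 (28.8 CPM).

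**Figure D5:**
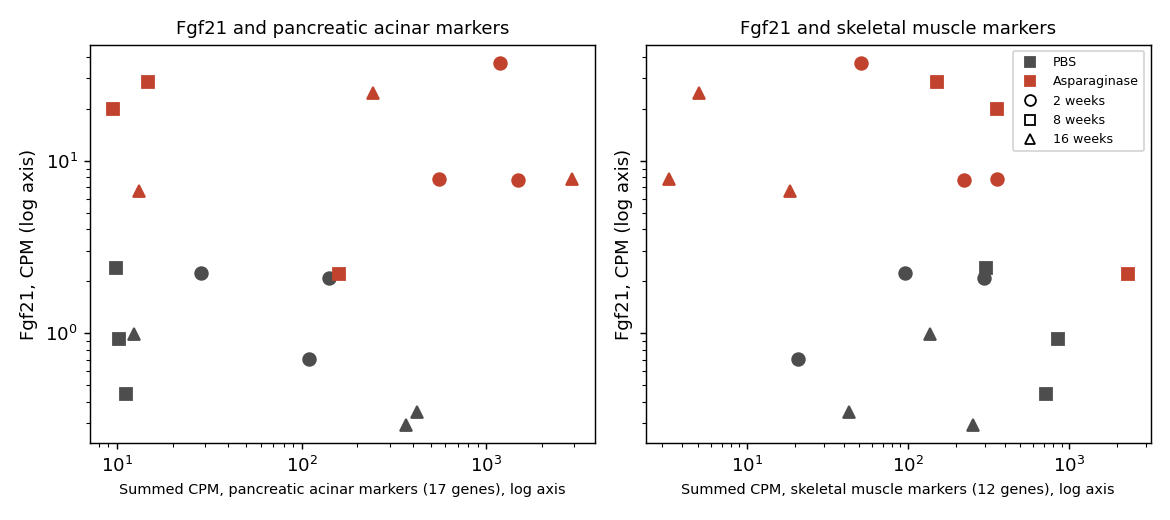
Fgf21 level against the summed level of pancreatic acinar markers (left) and skeletal muscle markers (right), both in CPM on log axes, 1 point per library. The asparaginase libraries of 8 weeks with 19.9 and 28.8 CPM of Fgf21 have acinar sums of 9.57 and 14.7, against 9.94 to 11.2 in PBS libraries of that age, and the one with 2.19 CPM has the highest muscle sum, 2310.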

How the data were processed

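The authors deposited raw counts per gene as whole numbers. The submitters' processing notes name TopHat, TopHat2 2.0.9, DESeq2, GRCm38 and mm10, without roles. The read counter, its annotation and its strand setting were not given in the sources used here. Symbols and positions came from GENCODE M21 (35533 of 37315 identifiers matched).

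From the counts, edgeR 4.0.16 (filterByExpr with minimum count 10 and total 15, TMM, quasi-likelihood F test) was fitted to all 18 libraries, with 6 group terms and labelled sex within each age, leaving 9 residual degrees of freedom. The Benjamini-Hochberg adjustment ran over 16213 genes, with 0.05 as threshold. Standard errors are the log2 fold change over the root of F. Log2 CPM with a prior count of 2 entered exact permutation tests within ages, without a sex term. The fit was tested on simulated data in which every gene had the same biological spread and no sex effect. Only genes of higher counts were changed there, by the same fold at each age. That test does not show how the fit behaves for genes as variable as Fgf21. Alternatives were DESeq2, limma-voom, other scalings, filters, sex terms and sets of libraries.

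Named genes were Fgf21, Gdf15, Asns, list genes past the threshold or of smallest p, the 5 most like each hormone gene and the nearest tested neighbours; other genes named were chosen after their values were seen. Not every gene taken by this rule is reported here. The 2 hormone genes and the lists were chosen with earlier results of these data known. Nothing shows pairing. The edgeR p-values set a difference against the spread between these samples, and the exact permutation p-values are shares of rearrangements.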

Additional observations from a re-analysis of the deposited data

How the results depend on the processing

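The mean effect on Fgf21 kept its direction and call in all 8 settings (3.42 to 3.9, adjusted p up to 0.0397) and in all 18 repeats without 1 library (2.91 to 3.88, adjusted p 0.000782 to 0.0204). At 2 weeks Fgf21 passed without the filter on low counts (3.34), with limma-voom (3.87) and with DESeq2 (3.26), and at 16 weeks without the filter (4.31) and with DESeq2 (4.5). Without 1 library its values were 1.79 (without asparaginase replicate 1) to 4.68 at 2 weeks and 3.62 to 5.46 at 16 weeks, with calls in 2 and 3 of the 18 repeats. Gdf15 passed in no edgeR, limma-voom or DESeq2 setting, and its sign turned at 2 weeks without asparaginase replicate 1 (-0.113, up to 1.53 over the repeats) and at 8 weeks without PBS replicate 2 (-0.957, up to 1.27). Its exact test gave 0.464 without the 3 libraries of mixed sex and 0.512 to 0.78 without 1 library.

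Asns lost its 2-week call without the sex term (2.78) and without the mixed libraries (2.93), with 2.63 (without asparaginase replicate 1, call lost) to 3.02 over the repeats. It lost its 8-week call without the sex term (2.21), without the mixed libraries (1.82), without the squamous libraries (1.85) and in the 8-week libraries alone (2.23), with 1.5 (without asparaginase replicate 1) to 2.19 over the repeats. Its joint test between ages gave an adjusted p of 0.00555 without the filter and 0.0362 to 0.39 without 1 library; the tests among ages gave 0.0534 (PBS) and 0.0569 (asparaginase) without the sex term.

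The number of genes called moved much more. At 2 weeks it was 6 without the sex term, 33 with it in adults only, 114 without the filter, 169 with limma-voom, 432 with DESeq2, 0 without the mixed libraries (947 at an unadjusted p under 0.05), 30 without the squamous ones, 2 in that age alone and 0 to 265 without 1 library. At 8 weeks it was 2 without the sex term, 445 without the filter, 659 with DESeq2, 0 without the mixed libraries (2940 unadjusted), 0 without the squamous ones (799 unadjusted), 0 in that age alone (1263 unadjusted) and 0 to 398 without 1 library. At 16 weeks it was 19 without the sex term, 83 without the filter, 322 with DESeq2, 16 in that age alone and 5 to 52 without 1 library. For the mean effect it was 528 without the sex term, 1525 with DESeq2, 97 without the mixed and 87 without the squamous libraries, and 134 to 1271 without 1 library. For the joint test between ages it was 1 with the sex term in adults only, 28 without the filter, 1 with limma-voom and 0 to 15 without 1 library. Among ages it was 3088 in PBS without the mixed libraries (2085 to 6083 without 1) and 2870 in asparaginase livers without the squamous ones (2169 to 6375 without 1). The cause of these moves was not tested.

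For Gdf15 and Asns with group means subtracted, r was -0.213 on library totals, -0.277 without the squamous libraries, and -0.282 (without 8-week asparaginase replicate 1), -0.0579 (replicate 3), -0.0317 (16-week asparaginase replicate 3) to 0.306 without 1 library. For Fgf21 and Gdf15 in PBS libraries r was 0.324 on library totals, 0.0514 without the mixed libraries, and from -0.37 to 0.247, with 0.0683 and 0.0816 among the repeats. Across asparaginase libraries r without 1 library was -0.0451 to 0.645 for Fgf21 and Asns and -0.288 to 0.521 for Gdf15 and Asns; for Fgf21 and Asns with group means subtracted it was 0.51 to 0.728, past the threshold in 2 repeats. Age means were also subtracted for the relations within a treatment, an alternative chosen after seeing the data, which gave 0.76 for Fgf21 and Asns in asparaginase libraries with no call. Planned correlations of Asns in PBS libraries, and of Fgf21 with Gdf15 in asparaginase libraries, are not given because the values fall into separate sets. No paired analysis was possible because replicate numbers follow deposition order and pair no mice. With 3 libraries a group and an SD of 1.26 in log2 CPM for Fgf21, these data limit single-age calls.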

Other observations

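The 8-week asparaginase library with low Fgf21 did not stand low for every gene of the stress response; the genes here were chosen after their values were seen. In replicates 1, 2 and 3 of that group, where Fgf21 was 2.19, 19.9 and 28.8 CPM, Trib3 was 27.3, 29.5 and 27.0 CPM, against 4.3 to 11.0 CPM in the PBS libraries of that age. Trib3 was thus about equal in the 3 libraries. Psat1 was 2.63, 6.52 and 5.65 CPM, in each case above the PBS range of 0.828 to 1.1 CPM. Atf5 was 123, 241 and 306 CPM, so that replicate 1 lay below the PBS range of 143 to 194 CPM and the other two above it. Klb, the co-receptor of FGF21, was 27.4, 24.8 and 24.5 CPM.

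At 2 weeks, asparaginase replicate 1 was the highest of its group for Fgf21 (37.0 CPM), Gdf15 (6.31), Trib3 (67.0 against 26.0 and 19.1), Ddit3 (20.3 against 13.1 and 10.9), Atf3 (4.67 against 1.33 and 2.09) and Inhbe (38.0 against 9.79 and 11.4). Asns, at 30.7 against 26.4 and 19.4 CPM, set that library apart much less. At 16 weeks the library with most Fgf21, asparaginase replicate 1 at 24.7 CPM, was not the one with most Trib3 or Ddit3: replicate 3 held 38.1 and 10.3 CPM of these, against 20.6 and 6.47 in replicate 1.

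Cdkn1a, a p53 target often raised together with Gdf15, varied widely among the PBS livers of 2 weeks, at 2.25, 24.3 and 52.3 CPM, where Gdf15 was 2.13, 2.14 and 3.66 CPM. In the PBS livers of 8 and 16 weeks Cdkn1a was 1.14 to 4.1 CPM.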
